A study of Homo sapiens with 12 samples.

Results

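The transcripts described here are those that vorinostat-exposed neuroblastoma cells labelled SK-N-SH changed in the same direction whether or not the cells had been selected for doxorubicin resistance. All 12 arrays of the series entered the comparison, in 4 groups of 3. WT-v was the parental line that received only vorinostat (labelled sWT+SAHA), and DoxR-v was the line selected with stepwise doxorubicin and given vorinostat at each dose increase (labelled sDR+SAHA). WT was the untreated parental line (sWT), and DoxR was the line selected with doxorubicin alone (sDR). The contrast set the mean of WT-v and DoxR-v against the mean of WT and DoxR, with the 4 groups weighted equally, and a gene counted as shared when it was called in this average and its direction was the same in WT-v vs WT and in DoxR-v vs DoxR. Of the 12093 genes tested, 1408 met this rule, and 507 of them were also called in each of the separate differences. Calls required a limma adjusted p under 0.1 together with a difference of more than 1.5-fold, which are the limits that the study applied.

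Vorinostat, also known as suberoylanilide hydroxamic acid or SAHA, inhibits class I and class II histone deacetylases (HDACs). These enzymes remove acetyl groups from histone tails, and their inhibition raises histone acetylation and alters the transcription of many genes in both directions. HDAC1, HDAC2 and HDAC3 work as the catalytic subunits of large corepressor complexes. In neuroblastoma, a tumour of the sympathoadrenal lineage, HDAC inhibitors are known for arrest of the cell cycle, differentiation and cell death after short exposures. The exposed lines studied here had instead received the drug intermittently, per the treatment protocol in the labels, at the times when the doxorubicin dose of the selected lines was raised. Whether the drug was still present at harvest was not stated. Each group stands for 1 line, so exposure to vorinostat and the separate derivation of each line cannot be told apart. The study describes triplicate RNA specimens, and neither its text nor the labels state that these came from separate cultures, so the p-values measure only the spread between these samples, which may be technical.

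Between 14969 and 17220 of 47323 probes were detected per array, at a detection p below 0.01, and the arrays correlated at r of 0.982 to 0.992 within groups and 0.936 to 0.971 between groups. Of 16 adrenergic neuroblastoma markers, 15 were tested, and all 15 were detected on every array of WT-v, DoxR-v and WT, with 14 in DoxR. No marker of blood cells (of 6) was tested, only ERBB3 was tested of 7 Schwann cell markers, and 2 of 4 epithelial markers were tested at low level. Of 12 markers of the mesenchymal S-type state that SK-N-SH cultures also contain, 8 were tested, and their mean log2 level was 7.71 to 7.80 in WT-v and 8.0 to 8.20 in DoxR-v, against 7.62 to 7.69 in WT and 9.02 to 9.03 in DoxR. MYCN was detected on all 12 arrays at log2 levels of 13.66 to 13.95, on a scale that reached 14, and MYC on 2 of 12. SK-N-SH is known as a line without MYCN amplification, and MYCN levels near the top of the scale go against that label. The arrays measure RNA and not gene copies, the identity of the lines was not tested, and the line is named here as the labels give it. In such bulk samples fewer cells of a type and less RNA per cell cannot be told apart. All levels below are quantile-normalised log2 probe intensities, which compare samples but not genes.

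Vorinostat-exposed and unexposed cells differed at 2757 of 21609 tested probes in the average, or 12.8%, of which 1364 were higher and 1393 lower. The split between higher and lower depended on how arrays were scaled. When quantile normalisation was replaced by scaling each array to its median over all probes, the median difference of the tested probes moved to 0.19 from 0.01 on the log2 scale and the split became 3428 higher and 677 lower. When it was replaced by scaling to the median of the probes detected on all 12 arrays, an alternative chosen after seeing the data, the median moved to -0.10 and the split became 1113 higher and 1905 lower. Shared calls that held under quantile normalisation and both median scalings numbered 552 higher and 325 lower genes, of 686 and 722. Calls in both backgrounds held for 180 higher and 122 lower genes, of 219 and 288. The 28 genes with the largest differences described below all held as shared, and ADGRG2 alone of them was no longer called in both. Among the other genes named below, ACACA, AURKA, CLU, CTSL, DCX, DLK2, FZD6, HEY1, LAMP2, MAP6, NPY, PLAT, PLXNA2, S100A11, SYN2 and TP53INP1 likewise held as shared but lost a separate call under a median scaling.

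Of the 2757 probes called in the average, 2275 (82.5%) had the same direction in both backgrounds and 482 had opposite directions. The average uses the same arrays as the separate differences, so this share is set in part by its construction. The separate differences share no arrays, and they agreed less. WT-v vs WT gave 5352 calls (24.8% of probes) and DoxR-v vs DoxR gave 5383 (24.9%). Both were called at 1769 probes, of which 783 (3.62% of probes tested) had the same direction and 986 (4.56%) had opposite directions. The 783 were 14.6% of the parental calls and 14.5% of the resistant calls, and the 986 were 18.4% and 18.3%. Over all tested probes, 47.9% had the same sign in both differences, and the correlation of the 2 differences was -0.05 (Spearman rho -0.05), which describes probes measured on the same 12 arrays. Among the 12794 probes detected on all 12 arrays, 48.3% had the same sign and the correlation was -0.03. The difference between the backgrounds itself, an interaction term of the same fit, was called at 8282 probes (38.3%). At 1273 probes (5.89%), 639 higher and 634 lower, all 6 vorinostat arrays lay on one side of all 6 others.

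By gene, 686 (5.67% of 12093) were shared and higher with vorinostat and 722 (5.97%) were shared and lower. Calls in both backgrounds numbered 219 higher genes (1.81%) and 288 lower genes (2.38%), against 621 genes (5.14%) called in both in opposite directions. Of the other shared genes, 376 were called among parental cells only and 525 among resistant cells only. WT-v vs WT alone called 1688 genes higher (14%) and 1492 lower (12.3%), and DoxR-v vs DoxR called 1731 higher (14.3%) and 1682 lower (13.9%). In 484 of the 507 genes the 3 vorinostat arrays lay apart from the 3 others in both backgrounds, and 37 exceeded a 4-fold average difference. The calls used these same arrays, so the selection itself favours such separation, which was not counted over all genes.

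**Figure D1:**
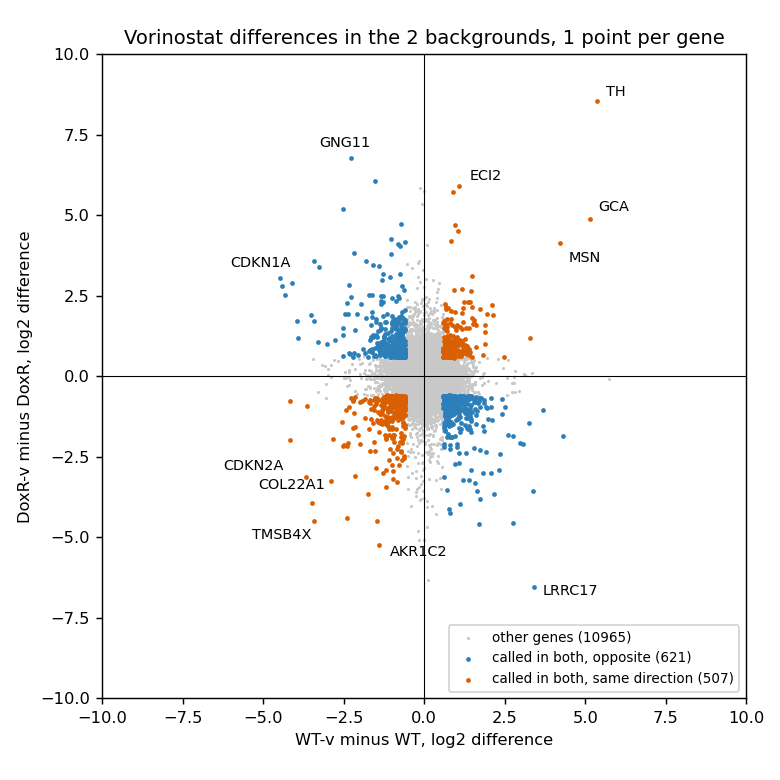
Each point is 1 of 12093 genes, with the WT-v minus WT log2 difference on the horizontal axis and the DoxR-v minus DoxR log2 difference on the vertical axis. Orange marks the 507 genes called in both in the same direction, blue the 621 called in both in opposite directions and grey all others. TH, GCA and MSN lie far out in the upper right corner, and TMSB4X, COL22A1 and CDKN2A in the lower left.

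TH, which encodes tyrosine hydroxylase, the rate-limiting enzyme of catecholamine synthesis, showed the largest shared difference. Its log2 levels were 13.11, 12.98 and 13.23 in WT-v, against 7.45, 8.04 and 7.70 in WT. Among resistant cells they were 13.18, 13.13 and 12.92 in DoxR-v, against 4.47, 4.53 and 4.59 in DoxR, and it was detected on none of the 3 DoxR arrays. Both vorinostat lines reached the same level within their spread, although the lines without vorinostat lay far apart. TH was 41.6-fold higher in WT-v than in WT (log2 5.38, SE 0.15, adjusted p = 2.20e-10) and at least 223-fold higher in DoxR-v than in DoxR (adjusted p = 1.03e-12). Where a transcript was not detected on any array of the dimmer group, such a bound sets the brighter mean against the lowest level of detected probes on each dim array, or the transcript's own level where that is higher. Both TH probes were called in both backgrounds.

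GCA encodes grancalcin, a calcium-binding protein best known from neutrophils. Its levels were 9.96, 10.01 and 9.55 in WT-v, against 4.56, 4.62 and 4.92 in WT. In the resistant pair they were 9.27, 9.50 and 8.95 in DoxR-v, against 4.43, 4.31 and 4.27 in DoxR. It was detected on all 6 vorinostat arrays and on none of the other 6, at least 21.5-fold higher in WT-v (adjusted p = 7.44e-10) and at least 15.5-fold higher in DoxR-v (adjusted p = 2.44e-10).

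MSN encodes moesin, a protein that ties the actin cortex to the plasma membrane. Levels of MSN were 11, 10.41 and 10.66 in WT-v, against 6.15, 6.72 and 6.54 in WT. They were 10.07, 9.64 and 10.04 in DoxR-v, against 5.58, 6.07 and 5.71 in DoxR. The rise was 18.6-fold in WT-v (log2 4.22, SE 0.20, adjusted p = 1.18e-08) and 17.5-fold in DoxR-v (4.13 on the log2 scale, SE 0.20, adjusted p = 5.38e-09). The 95% interval of the difference between these log2 changes ran from -0.70 to 0.52 (interaction adjusted p = 0.837).

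**Figure D2:**
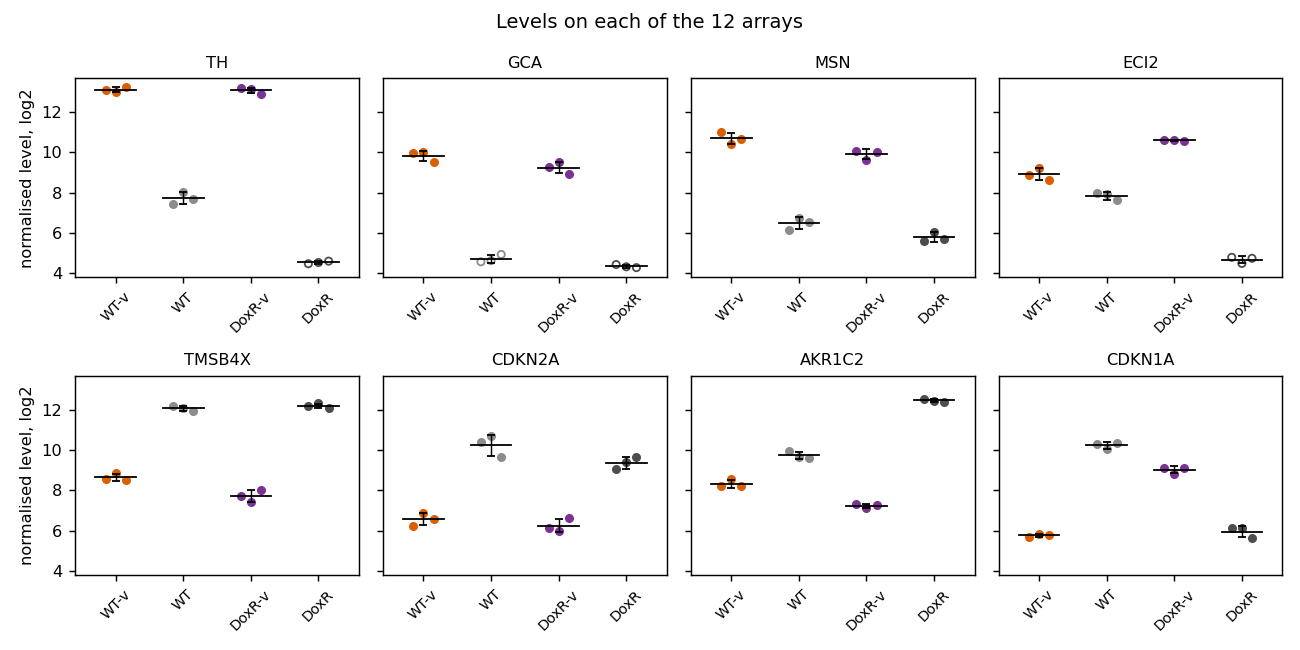
Normalised log2 levels of 8 genes on each of the 12 arrays, with WT-v left of WT and DoxR-v left of DoxR. Points are arrays, lines are group means, bars are SDs (n = 3), and open points mark groups in which the transcript was detected on no array. TH, GCA, MSN and ECI2 were higher with vorinostat in both backgrounds, TMSB4X, CDKN2A and AKR1C2 lower in both, and CDKN1A was lower in WT-v than in WT and higher in DoxR-v than in DoxR.

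Several other large shared rises were uneven, small among parental cells and large among resistant cells. ECI2, an enoyl-CoA isomerase of fatty acid oxidation, had levels of 8.87, 9.22 and 8.65 in WT-v, against 7.99, 7.94 and 7.62 in WT. Its levels were 10.61, 10.62 and 10.55 in DoxR-v, against 4.78, 4.48 and 4.74 in DoxR, with DoxR not detected. RPL39L, a paralog of the ribosomal protein gene RPL39, had levels of 11.02, 10.94 and 10.81 in WT-v, against 10.08, 10.23 and 9.78 in WT. Among resistant cells they were 10.17, 10.34 and 10.49 in DoxR-v, against 4.56, 4.68 and 4.62 in DoxR, again with no detection in DoxR, and its probes may share signal with RPL39 transcripts. In both genes DoxR was the group that stood apart, since the transcripts were detected on every array of the other 3 groups. The increases in WT-v were 2.09-fold for ECI2 (adjusted p = 3.03e-04) and 1.85-fold for RPL39L (adjusted p = 4.08e-04), and those in DoxR-v were at least 39.8-fold and at least 33.2-fold.

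LUM and DCN encode lumican and decorin, small leucine-rich proteoglycans of the extracellular matrix. LUM had levels of 10.02, 10.15 and 9.67 in WT-v, against 9.34, 8.66 and 8.96 in WT. The resistant pair had 12.06, 11.53 and 11.48 in DoxR-v, against 7.17, 6.83 and 7.01 in DoxR. DCN had levels of 11.22, 11.47 and 11.23 in WT-v, against 10.66, 10.18 and 9.96 in WT. In resistant cells they were 12, 11.38 and 11.57 in DoxR-v, against 7.25, 7.14 and 7.0 in DoxR. LUM rose 1.94-fold in WT-v and 25.8-fold in DoxR-v, and DCN rose 2.06-fold and 22.9-fold. Their interaction terms were 3.73 and 3.48 on the log2 scale (adjusted p = 7.32e-07 and 8.06e-07). TUBB4A, a beta-tubulin of neurons, followed the same pattern, at 1.79-fold in WT-v (adjusted p = 0.0313) and 18.6-fold in DoxR-v (adjusted p = 1.03e-07).

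Endoglin (ENG), a co-receptor for TGF-beta ligands, was the reverse case. Its levels were 7.98, 7.27 and 8.03 in WT-v, against 4.38, 4.62 and 4.47 in WT, where WT was not detected. The DoxR-v arrays gave 7.61, 7.72 and 7.25, against 6.38, 6.35 and 6.26 in DoxR. It rose at least 5.1-fold in WT-v (adjusted p = 8.32e-08) and 2.29-fold in DoxR-v (adjusted p = 3.15e-04). RGMA, a glycosylphosphatidylinositol-anchored guidance molecule and co-receptor for bone morphogenetic proteins, rose by similar amounts. Levels were 8.31, 8.22 and 8.79 in WT-v, against 6.49, 6.13 and 6.40 in WT. They were 8.24, 8.36 and 7.58 in DoxR-v, against 5.80, 5.91 and 5.80 in DoxR. The RGMA differences were 4.27-fold and 4.68-fold (adjusted p = 9.58e-06 and 2.47e-06), and the 95% interval of the gap between them ran from -0.49 to 0.75 on the log2 scale. CLMP, an immunoglobulin-type adhesion molecule of cell junctions, rose 2.74-fold in WT-v (adjusted p = 9.18e-05) and at least 4.45-fold in DoxR-v (adjusted p = 2.15e-07).

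ITM2A, a type II membrane protein, ZNF558, a zinc finger gene, and SLC16A14, of the monocarboxylate transporter family, were detected on all 6 vorinostat arrays and on none of the 6 others. ITM2A levels were 6.21, 6.60 and 5.74 in WT-v, against 4.48, 4.66 and 4.99 in WT. They were 8.11, 7.11 and 8.57 in DoxR-v, against 4.86, 4.65 and 4.94 in DoxR. ZNF558 levels were 6.73, 6.89 and 6.63 in WT-v, against 4.69, 4.55 and 4.58 in WT. Among resistant cells they were 6.27, 6.30 and 6.30 in DoxR-v, against 4.49, 4.38 and 4.29 in DoxR. The bounds for these genes were low because their bright levels were modest, at least 1.71-fold and 6.28-fold for ITM2A in WT-v and DoxR-v and at least 2.53-fold and 2.01-fold for ZNF558. In all, 28 of the 21609 tested probes, for 25 named genes, were detected on every vorinostat array and on none without. Such a pattern itself favours calls in both backgrounds, which 24 of these probes had. Besides GCA, ITM2A, ZNF558 and SLC16A14 they included GRM8, a metabotropic glutamate receptor, NOTCH3, a Notch receptor, HTR2C, a serotonin receptor, SERPINI1, which encodes the neuronal protease inhibitor neuroserpin, and PTGR1, a reductase of prostaglandins and leukotrienes for which 2 probes met the rule.

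The largest shared fall was that of TMSB4X, whose product thymosin beta 4 binds monomeric actin and holds it back from polymerisation. Its levels were 8.55, 8.84 and 8.53 in WT-v, against 12.19, 12.11 and 11.94 in WT. Among resistant cells the levels were 7.72, 7.42 and 8.01 in DoxR-v, against 12.18, 12.32 and 12.10 in DoxR. The unexposed lines had nearly equal, high levels, and the fall was 10.9-fold in WT-v (log2 -3.44, SE 0.16, adjusted p = 8.74e-09) and 22.3-fold in DoxR-v (-4.48 on the log2 scale, SE 0.16, adjusted p = 2.66e-10). The fall in DoxR-v was the larger (interaction log2 -1.04, adjusted p = 0.0028). TMSB4X has near-identical copies elsewhere in the genome, and its single probe may read them too.

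CDKN2A encodes the cyclin-dependent kinase inhibitor p16INK4a and, from another reading frame, the p53 regulator p14ARF, which the probe names do not tell apart. Its levels were 6.24, 6.86 and 6.59 in WT-v, against 10.39, 10.68 and 9.66 in WT. In the resistant pair they were 6.15, 5.97 and 6.61 in DoxR-v, against 9.04, 9.42 and 9.63 in DoxR. CDKN2A fell 12.8-fold in WT-v (log2 -3.68, SE 0.26, adjusted p = 5.03e-07) and 8.71-fold in DoxR-v (-3.12 on the log2 scale, SE 0.26, adjusted p = 1.07e-06), and both of its probes were called. Its neighbour CDKN2B, which encodes p15INK4b, was shared but weaker, with log2 differences of -0.96 in parental and -0.28 in resistant cells (average adjusted p = 0.00283). Its call in the average was lost under a median scaling and without any of WT-v replicate 3, DoxR-v replicate 2, WT replicate 3 and DoxR replicate 1 (average log2 -0.53 to -0.58).

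AKR1C2 belongs to the aldo-keto reductases that metabolise steroids and other carbonyl compounds, anthracyclines among them. AKR1C2 levels were 8.22, 8.55 and 8.21 in WT-v, against 9.93, 9.66 and 9.61 in WT. They were 7.30, 7.12 and 7.27 in DoxR-v, against 12.56, 12.45 and 12.38 in DoxR. DoxR was the highest group and DoxR-v the lowest, so the fall was 2.66-fold in WT-v (adjusted p = 1.02e-05) and 37.7-fold in DoxR-v (adjusted p = 1.74e-11). AKR1C4 (log2 -1.20 and -3.43) and AKR1C3 (log2 -1.46 and -1.36) fell in both backgrounds as well. These paralogs are close in sequence, so the probes may share signal and the genes are not independent observations.

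Among the other large falls, COL22A1, a collagen of tissue junctions, and CNGB1, a subunit of cyclic nucleotide-gated channels, were detected on all 6 arrays without vorinostat and on none with it. COL22A1 levels were 5.04, 4.75 and 4.93 in WT-v, against 8.71, 8.31 and 8.15 in WT. They were 4.37, 4.52 and 4.50 in DoxR-v, against 8.47, 8.41 and 8.36 in DoxR. The bounds were at least 9.03-fold and 8.67-fold lower for COL22A1 in WT-v and DoxR-v, and at least 4.11-fold and 3.37-fold lower for CNGB1. In all, 23 of the 21609 tested probes, for 14 named genes, were detected on every array without vorinostat and on none with it. Such a pattern itself favours calls in both backgrounds, which all 23 had. They included BMP7, a bone morphogenetic protein, B3GAT1, which builds the HNK-1 carbohydrate of neural cells, SGPP2, a sphingosine 1-phosphate phosphatase, MSRA, a methionine sulfoxide reductase, and LARP6, which binds collagen mRNAs.

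ENPP2, which encodes autotaxin, the secreted enzyme that makes lysophosphatidic acid, had levels of 6.0, 6.39 and 6.13 in WT-v, against 10.28, 10.14 and 10.58 in WT. They were 9.43, 8.75 and 9.10 in DoxR-v, against 11.13, 11.09 and 10.99 in DoxR. It fell 17.9-fold in WT-v (adjusted p = 4.67e-09) but 3.94-fold in DoxR-v (adjusted p = 2.20e-06). ADGRG2, an adhesion G protein-coupled receptor, fell 18.01-fold and 1.69-fold. The opposite imbalance held for PNMA2, a neuronal antigen of paraneoplastic disease (2.75-fold in WT-v and 22.7-fold in DoxR-v), for CHODL, a membrane lectin (5.23-fold, and at least 13.04-fold), and for GPBAR1, a bile acid receptor (3.33-fold, and at least 9.66-fold). PITX1, a homeobox transcription factor, had levels of 7.65, 7.79 and 7.79 in WT-v, against 9.96, 9.95 and 9.80 in WT. The DoxR-v arrays gave 6.62, 6.53 and 5.55, against 9.25, 9.34 and 9.40 in DoxR. PITX1 fell 4.46-fold and 8.55-fold (adjusted p = 1.40e-05 and 2.23e-07). STMN4, a neuronal stathmin that binds tubulin, fell 7.13-fold and 3.84-fold, and TNFRSF19, a receptor of the tumour necrosis factor family, fell 5.67-fold and 4.39-fold.

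**Figure D3:**
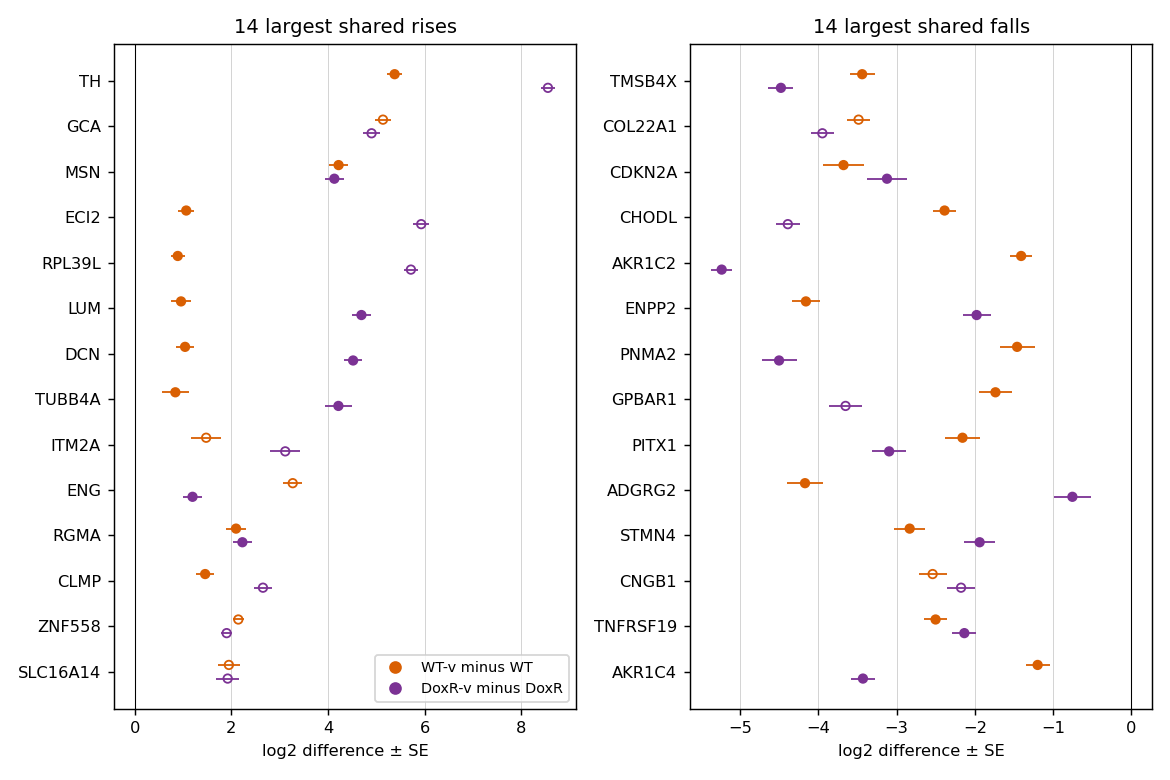
Log2 differences with their SEs for the 14 largest shared rises and the 14 largest shared falls, WT-v minus WT in orange above DoxR-v minus DoxR in purple. Open points mark differences whose dimmer group was detected on no array, which are not exact. MSN and RGMA rose with no called interaction, and ECI2, RPL39L, LUM, DCN and TUBB4A rose far more in DoxR-v.

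Promoter sequence was looked up for these genes to show what the members that moved together hold at their start sites. The RefSeq-derived table (GRCh38.p14) holds windows of 300 bases, 250 before and 50 after a start site, and it matched 19 of the 28 genes with the largest differences, 9 of them with 1 start. The motif searched was the GC box, GGGCGG or its reverse complement CCGCCC, on both strands, which the factors Sp1 and Sp3 bind and through which HDAC inhibitors are known to act on the CDKN1A promoter. ITM2A and ENG are shown for the shared rises, TMSB4X and PITX1 for the shared falls, and CDKN1A for the genes with opposite directions, all with 1 start in the table, on the gene's strand and with GC boxes in capitals.
ITM2A (chrX:79367285-79367584, minus strand): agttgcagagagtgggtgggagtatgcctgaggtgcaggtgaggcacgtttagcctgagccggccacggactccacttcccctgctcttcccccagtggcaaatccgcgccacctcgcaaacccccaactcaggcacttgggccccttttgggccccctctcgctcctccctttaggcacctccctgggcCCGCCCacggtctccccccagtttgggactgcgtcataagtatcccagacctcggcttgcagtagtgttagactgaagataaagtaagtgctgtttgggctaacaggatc
ENG (chr9:127854609-127854908, minus strand): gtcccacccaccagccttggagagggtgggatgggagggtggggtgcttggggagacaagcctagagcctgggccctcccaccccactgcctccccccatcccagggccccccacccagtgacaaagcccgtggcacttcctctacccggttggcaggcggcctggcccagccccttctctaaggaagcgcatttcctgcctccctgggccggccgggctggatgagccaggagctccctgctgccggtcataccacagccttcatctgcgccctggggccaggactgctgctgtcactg
TMSB4X (chrX:12974860-12975159, plus strand): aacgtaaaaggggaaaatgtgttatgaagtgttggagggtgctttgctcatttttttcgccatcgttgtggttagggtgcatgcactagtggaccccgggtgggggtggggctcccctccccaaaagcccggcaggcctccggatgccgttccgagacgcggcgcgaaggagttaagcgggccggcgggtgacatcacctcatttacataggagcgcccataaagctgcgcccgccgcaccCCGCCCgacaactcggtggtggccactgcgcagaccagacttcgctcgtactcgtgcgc
PITX1 (chr5:135034179-135034478, minus strand): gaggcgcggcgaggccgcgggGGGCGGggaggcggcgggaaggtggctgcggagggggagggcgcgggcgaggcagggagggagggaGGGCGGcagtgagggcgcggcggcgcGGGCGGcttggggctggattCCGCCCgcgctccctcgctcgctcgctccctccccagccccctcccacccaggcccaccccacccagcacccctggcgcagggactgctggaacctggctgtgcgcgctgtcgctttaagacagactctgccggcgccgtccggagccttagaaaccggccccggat
CDKN1A (chr6:36678464-36678763, plus strand): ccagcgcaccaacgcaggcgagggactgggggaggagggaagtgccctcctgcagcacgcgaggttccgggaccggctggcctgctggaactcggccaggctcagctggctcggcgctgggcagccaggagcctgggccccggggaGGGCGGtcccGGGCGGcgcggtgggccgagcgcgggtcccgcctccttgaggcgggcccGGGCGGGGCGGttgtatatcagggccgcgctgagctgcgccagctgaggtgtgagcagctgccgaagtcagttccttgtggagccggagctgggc

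The CDKN1A window held 4 GC boxes, 2 of which share 1 base, PITX1 held 4, ITM2A and TMSB4X held 1 each, and ENG held none. Of all 35116 windows in the table, 45% held a GC box, as did 64.4% of the 14173 windows of tested genes. The share was 70.3% of 276 windows for genes that rose in both backgrounds, 59.2% of 292 windows for genes that fell in both and 63.4% of 782 windows for genes called in opposite directions. These shares are descriptions of letters in a window, and genes with several starts count more than once.

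Some shared changes were of nearly equal size in both backgrounds. The most even rises among well-measured genes included PRR11, CIP2A, RHNO1, FAM72D and CEP41. PRR11 is a gene expressed in cycling cells, CIP2A an inhibitor of protein phosphatase 2A, RHNO1 a partner of the 9-1-1 DNA damage clamp and CEP41 a centrosomal protein. FAM72D rose 1.79-fold in WT-v and 1.8-fold in DoxR-v, and CEP41 1.62-fold and 1.59-fold. FAM72D is one of a set of near-identical copies, and its probe may read the others. The most even falls included C1GALT1C1, the chaperone of the core O-glycan galactosyltransferase, with levels of 8.34, 8.50 and 8.12 in WT-v, against 9.66, 9.62 and 9.76 in WT. They were 8.95, 8.77 and 9.03 in DoxR-v, against 10.32, 10.30 and 10.26 in DoxR. It fell 2.57-fold in WT-v and 2.59-fold in DoxR-v (adjusted p = 7.14e-06 and 2.95e-06). GPR162, an orphan receptor gene, fell 2.71-fold and 2.66-fold, PLAT, tissue plasminogen activator, 2.0-fold and 1.97-fold, and S100A11, a calcium-binding protein, 1.83-fold and 1.81-fold. AFAP1, an actin filament binding protein, fell 1.62-fold and 1.59-fold, and its call, like that of RHNO1, was lost under a median scaling. The average differences of CIP2A (0.60) and RHNO1 (0.60) lay just past the fold threshold. The call of CIP2A was lost without WT-v replicate 1 or 2, DoxR-v replicate 1 or WT replicate 2 (0.54 to 0.58), and that of RHNO1 without WT-v replicate 2, WT replicate 1 or DoxR replicate 1 (0.56 to 0.58).

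The size of the shared changes differed between backgrounds in part of them. Of the 783 probes called in both backgrounds in the same direction, 187 (23.9%) also had a called interaction, against 38.3% of all probes tested. Selection for the same direction leaves out the opposite calls, which had the widest gaps. The lower share is therefore set in part by that selection. By gene, 129 of the 507 had a called interaction, and the difference was larger among resistant cells in 91 of the 129. Over all 507 genes it was larger among resistant cells in 284.

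No gene for the enzymes that the drug acts on was called as shared. Counts of shared members of gene lists, here and below, are to be read against 5.67% higher and 5.97% lower of all genes. Of the 10 tested genes for class I, II and IV deacetylases limma called none in the average, with 1 higher and 1 lower at an unadjusted p below 0.05. HDAC1 levels were 11.13, 11.33 and 11.21 in WT-v, against 11.22, 11.07 and 11.08 in WT. They were 10.86, 10.94 and 10.94 in DoxR-v, against 10.91, 10.86 and 10.83 in DoxR, and the 95% interval of its average log2 difference ran from -0.10 to 0.25. HDAC2 differed between backgrounds, at log2 0.38 in WT-v (adjusted p = 0.0436, under the fold threshold) and -0.60 in DoxR-v (adjusted p = 0.00366), with a called interaction (adjusted p = 0.00141). HDAC3 differed by log2 0.06 and -0.50, neither called. Of 19 corepressor subunits and acetyltransferases, 2 were shared and higher and none was lower, namely MTA1, of the NuRD complex (log2 0.98 and 0.58), and the acetyltransferase EP300 (log2 1.32 and 0.38).

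Of 23 tested genes that HDAC inhibitors often induce in short exposures, 1 was shared and higher and 4 were shared and lower. TGFBR2, a TGF-beta receptor, rose, with levels of 5.73, 5.81 and 5.60 in WT-v, against 4.72, 4.67 and 4.71 in WT. They were 8.0, 7.96 and 6.96 in DoxR-v, against 6.49, 6.47 and 6.48 in DoxR. CLU, the secreted chaperone clusterin, fell (log2 -0.63 in WT-v and -1.86 in DoxR-v, average adjusted p = 1.48e-05), as did the autophagy receptor SQSTM1 (log2 -0.90 and -0.85, average adjusted p = 8.25e-06). SYT11 (log2 -0.52 and -0.94) and DHRS2, a short-chain reductase (average adjusted p = 6.83e-04), were the other falls, and the call of DHRS2 was lost under a median scaling. The median average log2 difference of the 23 was -0.20, against 0.03 over all genes.

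CDKN1A, which encodes the kinase inhibitor p21 and is the classical target of this drug class, was not shared. Its levels were 5.70, 5.81 and 5.78 in WT-v, against 10.31, 10.04 and 10.34 in WT. Among resistant cells they were 9.12, 8.82 and 9.11 in DoxR-v, against 6.10, 6.11 and 5.62 in DoxR. It was 22.1-fold lower in WT-v than in WT (log2 -4.47, SE 0.16, adjusted p = 1.19e-09) and 8.4-fold higher in DoxR-v than in DoxR (log2 3.07, SE 0.16, adjusted p = 8.99e-09). The interaction was 7.54 (adjusted p = 9.06e-11), so that the 2 low groups, WT-v and DoxR, and the 2 high groups, WT and DoxR-v, crossed.

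Fatty acid synthesis had the largest share of shared calls among the lists examined. Of its 11 tested genes, 6 were shared and higher and none lower, against 5.67% and 5.97% of all genes, and its median average log2 difference was 0.62. ACACA, the acetyl-CoA carboxylase that commits carbon to the pathway, had levels of 10.44, 10.55 and 10.64 in WT-v, against 10, 9.76 and 9.84 in WT. They were 10.15, 10.08 and 10.18 in DoxR-v, against 8.61, 8.60 and 8.71 in DoxR. It rose 1.6-fold in WT-v (adjusted p = 7.36e-04) and 2.82-fold in DoxR-v (adjusted p = 5.67e-07). FASN, the fatty acid synthase itself, rose 1.88-fold and 1.61-fold (adjusted p = 0.00144 and 0.00723). ACLY and ACSS2, which supply cytosolic acetyl-CoA from citrate and acetate, were called separately in resistant cells only (log2 0.26 and 1.02 for ACLY, 0.33 and 1.07 for ACSS2). SREBF1, the transcription factor of the pathway (log2 0.76 and 0.48), and FADS2, a desaturase (log2 1.18 and 0.09), were called separately in parental cells only. All of these but ACLY stayed called under both median scalings. With the authors' normalised values 3 genes of the list were shared and higher and none lower. FADS2 and SREBF1 lay close to the fold threshold, and both calls were lost without WT-v replicate 3 (average log2 0.58 and 0.52) and without WT replicate 1 (0.53 and 0.53). Of 20 genes of cholesterol synthesis, the sister pathway, 1 was shared and higher and 2 were shared and lower, against 3 higher and none lower when arrays were scaled to their overall median.

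Cell cycle genes rose in part. Of 26 mitotic genes, 6 were shared and higher and none lower, and of 30 genes of DNA replication and nucleotide synthesis 5 were higher and none lower. When arrays were scaled to their overall median these became 12 and 11 higher and none lower, and when they were scaled to the median of the detected probes, 5 higher and 1 lower for mitosis and 4 higher and none lower for replication. AURKA, the spindle kinase Aurora A, had levels of 11.63, 11.66 and 11.66 in WT-v, against 10.93, 10.84 and 11.16 in WT. They were 11.69, 11.73 and 11.57 in DoxR-v, against 10.54, 10.63 and 10.54 in DoxR. AURKA rose 1.6-fold and 2.13-fold (adjusted p = 8.74e-04 and 1.17e-05). CDCA8, of the chromosomal passenger complex, rose 1.92-fold and 1.58-fold, RRM2, a subunit of ribonucleotide reductase, 2.5-fold and 1.93-fold, and MCM5, of the replicative helicase, 1.8-fold and 1.73-fold. TPX2, KIF23 and BUB1B were shared, but their separate difference was called in WT-v and not in DoxR-v. The call of BUB1B in the average (log2 0.59) lay close to the fold threshold and was lost without WT-v replicate 1 or 2, DoxR-v replicate 2 or 3, WT replicate 2 or DoxR replicate 2 (log2 0.52 to 0.58). TOP2A, the topoisomerase that doxorubicin poisons, was shared too (log2 0.82 and 0.54, average adjusted p = 1.26e-04), and its call was lost under a median scaling. In WT-v alone, 16 of the 26 mitotic genes were called higher, against 14% of all genes, and 3 were called higher and 3 lower in DoxR-v, against 14.3% and 13.9%. Whether these counts differ between the backgrounds was not tested. CENPF and KIF11, both mitotic, were among the genes called in opposite directions. Of 16 Polycomb and DNA methylation genes, 3 were shared and higher, but none was with the authors' normalised values. DNMT3B, a de novo DNA methyltransferase, rose 2.04-fold in WT-v and 3.03-fold in DoxR-v (adjusted p = 9.57e-05 and 1.05e-06). EZH2, the Polycomb methyltransferase (log2 1.15 and 0.29), and PCGF2 (log2 0.46 and 1.05) were called in 1 background each.

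Of 25 lysosomal and autophagy genes, 6 were shared and lower and 1 higher, but the split depended on the scaling, with 4 lower and 3 higher when arrays were scaled to their overall median. LAMP2, a protein of the lysosomal membrane, had levels of 8.82, 8.84 and 8.54 in WT-v, against 9.60, 9.52 and 9.75 in WT. They were 8.64, 8.89 and 8.89 in DoxR-v, against 10.03, 10.08 and 10.03 in DoxR. It fell 1.85-fold and 2.36-fold (adjusted p = 2.20e-04 and 7.71e-06). The lysosomal proteases CTSL (log2 -1.25 and -0.65) and CTSB (log2 -0.65 and -0.78) fell in both. The falls of LAMP2, CTSL, SQSTM1 and ATP6AP1 held under both median scalings, and those of CTSB and GLA did not. BECN1, a core autophagy gene, was the exception, at log2 0.05 in WT-v and 2.0 in DoxR-v. Of 31 respiratory chain genes, 4 were shared and lower and none higher. These were NDUFA1, NDUFB9 and NDUFC2 of complex I (log2 -1.04 and -1.08 for NDUFB9) and UQCRB of complex III (log2 -0.66 and -0.74), and the calls of NDUFA1 and NDUFB9 alone held under both median scalings.

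Of 22 synaptic vesicle genes 5 were shared and lower and none higher, against 3 lower and 2 higher when arrays were scaled to their overall median, and 3 of the 5 held under both median scalings. RIMS2, an active zone scaffold, had levels of 8.80, 8.86 and 8.93 in WT-v, against 10.15, 10.19 and 10.11 in WT. They were 9.58, 9.39 and 9.43 in DoxR-v, against 10.85, 11.11 and 10.70 in DoxR. It fell 2.44-fold and 2.68-fold (adjusted p = 1.18e-05 and 2.19e-06), and SYN2, a synapsin, fell 1.8-fold and 1.95-fold. Of 25 tubulins and microtubule proteins 5 were lower and 1, TUBB4A, was higher, a split that turned to 4 lower and 5 higher under scaling to the overall median. DCX, doublecortin of migrating neurons, fell 1.81-fold in WT-v and 5.84-fold in DoxR-v (adjusted p = 0.00137 and 7.23e-08), and MAP6 fell 1.96-fold and 3.75-fold. Among 23 neuropeptide and granin genes, NPY, neuropeptide Y, was shared and higher (log2 2.48 and 0.61) and GAL, galanin, shared and lower (log2 -1.11 and -1.25), while 5 were called in opposite directions, against 5.14% of all genes. The adrenergic identity list, to which TH belongs, had no other shared rise under quantile normalisation. Of its 24 genes 6 were called in opposite directions, read against the same 5.14%. Among them were DBH, which encodes a later enzyme of noradrenaline synthesis (log2 -0.59 in WT-v and 4.18 in DoxR-v), and SLC18A1, a vesicular monoamine transporter (log2 -1.32 and 0.93).

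Of 22 p53 pathway genes, 4 were shared and lower and none higher, and 3 of the 4 held under both median scalings. Scaling to the overall median gave 1 higher and 3 lower. In opposite directions 3 were called, against 5.14% of all genes. SESN1, a stress sestrin, fell 2.19-fold and 2.16-fold (adjusted p = 9.30e-05 and 6.06e-05), and TP53INP1, a p53-induced nuclear protein, fell 1.53-fold and 2.85-fold. The list of hypoxia-inducible factors and their targets split, with 3 shared and higher and 5 shared and lower of 27. EPAS1, which encodes HIF-2 alpha, had levels of 7.98, 8.18 and 8.31 in WT-v, against 7.88, 6.54 and 7.18 in WT. They were 8.80, 9.63 and 8.63 in DoxR-v, against 7.09, 7.17 and 6.79 in DoxR. EPAS1 rose 1.94-fold in WT-v (adjusted p = 0.0274) and 4.0-fold in DoxR-v (adjusted p = 1.99e-04), and the WT arrays spread widely, with WT replicate 1 close to WT-v. EPAS1 stayed shared under every normalisation tried, but its call in both backgrounds did not hold under all of them. The study lists EPAS1, ITM2A and TUBB4A (as TUBB4) as changed in DoxR-v of both its cell lines, and not in DoxR or WT-v. HIF1A, which encodes HIF-1 alpha, was shared as well (log2 0.98 and 0.56), but its call was lost when its 3 probes were averaged. The lower members were targets, among them NDRG1 and STC2 (log2 -0.58 and -1.18 for STC2).

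Receptors of developmental signalling were among the shared changes in small number. Of 11 Notch genes, NOTCH3, the ligand JAG2 and DLK2 were higher, and the target HEY1 was lower (log2 -0.85 and -1.13, average adjusted p = 1.60e-06). Of 16 Wnt genes, the receptors FZD7 (log2 0.71 and 1.78) and FZD2 (log2 1.02 and 0.58) and the factor TCF7L2 were higher, while FZD6 (log2 -0.90 and -1.09) and DKK3, a secreted Wnt antagonist whose difference was called in WT-v and not in DoxR-v, were lower. The call of DKK3 was lost under a median scaling. Of 17 ABC transporter genes none was shared, 3 were called in opposite directions (ABCB9, ABCC3 and ABCC9, against 5.14% of all genes), and limma gave 3 higher and 4 lower in the average at an unadjusted p below 0.05. ABCB1, the drug efflux pump, had levels of 10.41, 10.34 and 10.47 in WT-v, against 9.90, 9.89 and 10.38 in WT. They were 11.20, 11.24 and 10.90 in DoxR-v, against 12.25, 12.14 and 12.05 in DoxR. It fell in DoxR-v (log2 -1.04, adjusted p = 1.54e-04) and differed by log2 0.35 in WT-v (adjusted p = 0.0938, under the fold threshold), and the interaction was called (adjusted p = 2.71e-04). MYCN did not differ detectably, with a 95% interval of the average log2 difference from -0.17 to 0.18. Its levels lay near the top of the scale, which reached 14, so a difference there could be understated. MYC was near background, detected on 1 WT array and 1 DoxR array only.

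**Figure D4:**
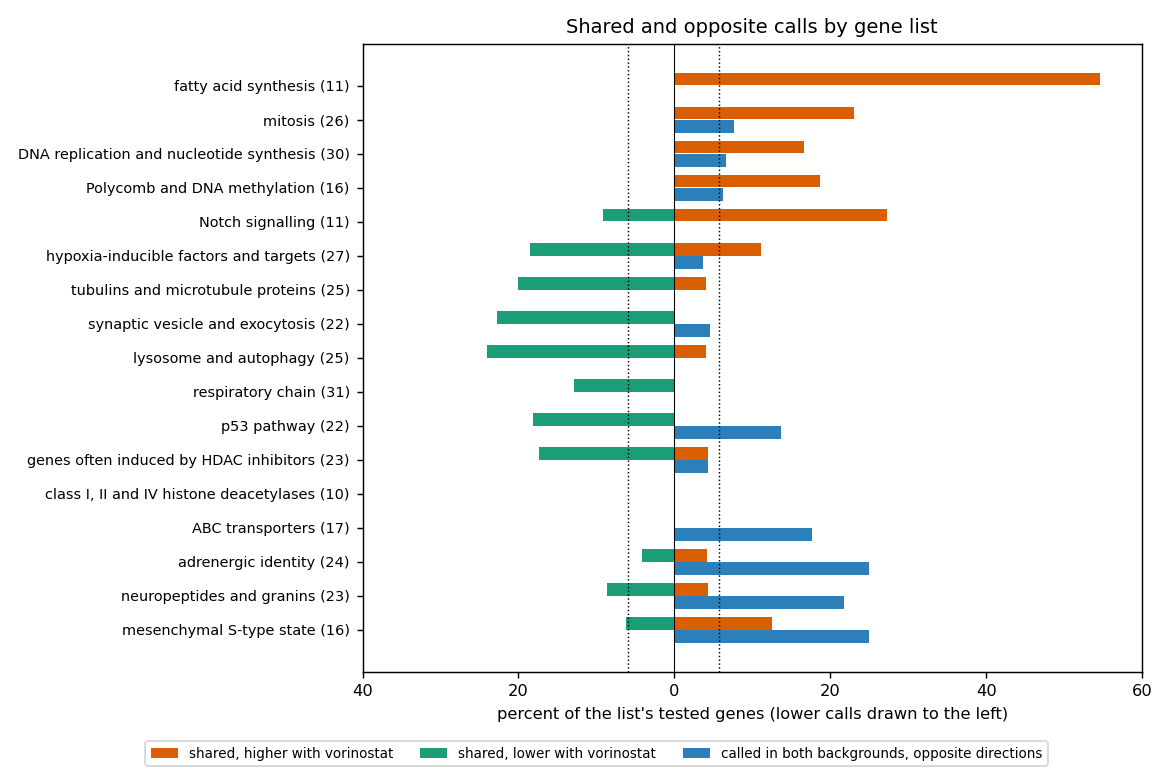
Percent of the tested genes of 17 lists (number in brackets) that were shared and higher with vorinostat (orange, right), shared and lower (green, left) or called in both backgrounds in opposite directions (blue). Dotted lines mark 5.67% higher and 5.97% lower over all genes. Fatty acid synthesis reached furthest to the right, and lysosome and autophagy furthest to the left under quantile normalisation.

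The genes that moved in opposite directions set the limit of what was shared. LRRC17, a secreted leucine-rich repeat protein, had levels of 9.39, 9.66 and 9.16 in WT-v, against 6.34, 5.75 and 5.91 in WT. They were 5.57, 5.73 and 5.65 in DoxR-v, against 12.26, 12.13 and 12.23 in DoxR. LRRC17 was 10.6-fold higher in WT-v and 94.2-fold lower in DoxR-v, an interaction of -9.96 on the log2 scale (adjusted p = 1.88e-11). LEF1, a Wnt transcription factor, SLITRK1, a neuronal adhesion protein, SPRY1, a receptor kinase antagonist, and IGFBP3, which binds insulin-like growth factors, followed the same pattern. GNG11, a G protein gamma subunit, had levels of 5.06, 5.18 and 5.36 in WT-v, against 7.66, 7.74 and 7.02 in WT. They were 11.65, 11.31 and 11.34 in DoxR-v, against 4.39, 4.82 and 4.69 in DoxR. GNG11 fell 4.82-fold in WT-v and rose at least 71.1-fold in DoxR-v. NEFH, the heavy neurofilament, TAGLN3, a neuronal calponin-like protein, and SCG5, a chaperone of prohormone convertase, were likewise lower in WT-v and higher in DoxR-v. SST, somatostatin, and PON2, a paraoxonase, rose in DoxR-v (at least 25.5-fold and 6.72-fold), while SST was not detected in WT-v or WT and PON2 differed by log2 -0.22 there (adjusted p = 0.235).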

How the data were processed

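RNA of 12 samples labelled SK-N-SH (3 each of WT-v, DoxR-v, WT and DoxR) was hybridised to Illumina HumanHT-12 v4 BeadChips. The deposited non-normalised table gives a signal intensity and a detection p-value per probe and array. The authors' normalised values, which the submitters' processing notes tie to lumi 2.13.3 and R 3.0.1, were an alternative. Their columns all had a median of 166 and values down to 145.7, and they were taken to be on a linear intensity scale. Here intensities were background-corrected with the detection p-values, offset by 16, quantile-normalised and put on the log2 scale with neqc (limma 3.58.1, R 4.3.3), whereas the deposited intensity values carried no log. Probes with a detection p below 0.01 on at least 1 array (21609 of 47323) entered 1 limma fit with 1 mean per group, with Benjamini-Hochberg adjustment over all of them.

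Platform annotation, updated through Entrez identifiers (30074 probes matched), named the genes. It gave 1 symbol for 30113 probes, several for 8 and none for 17202. Each gene was represented by its brightest tested probe. Named genes were the 14 largest rises and falls called in both backgrounds without overlap, up to 6 per gene list, the 5 most opposed each way, the 5 most even each way and the genes the study follows, and others were chosen after their values were seen. The members and lists were chosen with earlier results of these data known. On simulated data for 21609 probes with normally distributed noise, changes were planted in a small part of the probes. Of those planted in both backgrounds in the same direction, 73% of 2-fold and 99% of 4-fold changes were called in both. Far fewer probes were changed there than were called on the arrays, so these shares may not carry over. The number of arrays limits the precision.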

Additional observations from a re-analysis of the deposited data

Results flagged for a closer look

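At 8282 probes the vorinostat difference among resistant cells (DoxR-v minus DoxR) was unequal to that among parental cells (WT-v minus WT) by the interaction term of the limma fit, and these included many genes whose direction was shared. All values here are resistant minus parental differences on the log2 scale, each with a called interaction.

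Among the 14 largest shared rises, the increase was larger in resistant cells for TH (3.17), ECI2 (4.86), RPL39L (4.82), LUM (3.73), DCN (3.48), TUBB4A (3.37), ITM2A (1.64) and CLMP (1.20), and larger in parental cells for ENG (-2.07). In TH, ECI2, RPL39L and CLMP the DoxR arrays did not detect the transcript, nor did the WT arrays in ENG, so the sizes there are not exact. MSN and RGMA had no called interaction. In GCA, ITM2A, ZNF558 and SLC16A14 neither WT nor DoxR detected the transcript, so the 2 increases could not be compared, although ITM2A had a called interaction (1.64).

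Among the 14 largest shared falls, the decrease was larger in resistant cells for TMSB4X (-1.04), CHODL (-2.00), AKR1C2 (-3.83), PNMA2 (-3.04), GPBAR1 (-1.92), PITX1 (-0.94) and AKR1C4 (-2.23), and larger in parental cells for ENPP2 (2.18), ADGRG2 (3.42) and STMN4 (0.89). In CHODL and GPBAR1 the DoxR-v arrays did not detect the transcript, so the sizes there are not exact. CDKN2A and TNFRSF19 had no called interaction, and in COL22A1 and CNGB1 neither WT-v nor DoxR-v detected the transcript.

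Opposite directions gave the widest gaps. Higher in WT-v and lower in DoxR-v were LRRC17 (-9.96), LEF1 (-7.30), SLITRK1 (-6.92), SPRY1 (-6.28) and IGFBP3 (-6.16). Lower in WT-v and higher in DoxR-v were GNG11 (9.07), NEFH (7.71), TAGLN3 (7.60), CDKN1A (7.54) and SCG5 (7.25). These gaps are not exact for LEF1 and SPRY1, not detected in DoxR-v, SLITRK1 and IGFBP3, not detected in WT, and GNG11 and TAGLN3, not detected in DoxR. Among the genes that the study follows and its drug targets, the differences were unequal for HDAC2 (-0.99), ABCB1 (-1.39), EPAS1 (1.05), SST (5.44) and PON2 (2.97), and the value for SST is not exact, since it was not detected in WT-v, DoxR or WT.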

How the results depend on the processing

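The 6 counts of called probes were the average (2757), shared (2275), called in both backgrounds (783), the parental difference (5352), the resistant difference (5383) and the interaction (8282). Without background correction they were 1129, 967, 327, 2488, 2874 and 5078. With the authors' normalised values they were 660, 570, 189, 1507, 1838 and 3307. With the limits set at an adjusted p of 0.05 and 2-fold they were 664, 540, 170, 1677, 2039 and 4158, since fewer probes pass stricter limits. Median scaling gave 3503 shared probes and 1278 called in both, and raised the share of higher calls in the average to 83.5%, against 49.5%. Scaling to the median of the probes detected on all 12 arrays, chosen after seeing the data, gave 36.9%. The cause of the other shifts was not tested. Leaving out single arrays gave 2648 to 3114 calls in the average and 729 to 900 called in both.

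Deviations of same-numbered arrays from their group means correlated at -0.33 to 0.17. Differently numbered arrays were not compared, so whether the replicate numbers pair the samples was not settled. With the replicate number as a block, the counts were 2756, 2274, 784, 5338, 5375 and 8225. The correlation of the differences ranged from -0.07 to -0.01 and the share called in the same direction from 42% to 57.4% over the alternatives. All of the 28 genes with the largest differences kept their call in the average under each alternative, except ZNF558 and SLC16A14 with the authors' normalised values. Of the 28, ADGRG2, CLMP, CNGB1, ENG, GPBAR1, ITM2A, SLC16A14, TUBB4A and ZNF558 were not called in both backgrounds under all 5 normalisations. A fit with the BeadChip as a block was not run, because the files used here name no BeadChip. Shared calls under all 5 normalisations numbered 127 higher and 157 lower genes.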

Other observations

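Further gene lists held shared changes in smaller numbers, each to be read against 5.67% higher and 5.97% lower of all genes. Of 16 genes of the insulin-like growth factor axis, 3 were shared and higher and none lower, namely the receptor substrates IRS1 (log2 1.25 in WT-v and 0.46 in DoxR-v) and IRS2 (log2 0.17 and 1.03) and the RNA-binding protein IGF2BP3 (log2 0.42 and 1.20), while 3 binding protein genes, IGFBP3, IGFBP5 and IGFBP7, were called in opposite directions. Of 22 axon guidance genes, 3 were higher and 3 lower. PLXNA2, a semaphorin receptor, fell in both backgrounds (log2 -0.92 and -1.14, average adjusted p = 1.89e-04). Of 11 glutamate and GABA receptor genes, 2 were higher, GRIN1 and GRM8, and GRM8 was called in both backgrounds. NDN, the imprinted gene of the neuronal protein necdin, rose in both (log2 0.75 in WT-v, average adjusted p = 8.58e-06), and DoxR did not detect it.

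Of 33 antioxidant and glutathione genes, 2 were shared and higher and 3 lower, a split that turned to 5 higher and 1 lower when arrays were scaled to their overall median. HMOX1, haem oxygenase 1, differed by log2 0.37 in WT-v and 2.31 in DoxR-v, and MGST2, a microsomal glutathione transferase, fell in both (log2 -2.42 and -1.03). Of 17 heat shock chaperone genes, HSPA2 rose in both (log2 0.63 and 1.03) and the co-chaperone BAG3 was shared and lower, mostly in parental cells (log2 -3.29 and -0.49). Of 22 fatty acid oxidation genes, ECI2 and EHHADH were higher (log2 1.11 and 1.54 for EHHADH) and DECR1 was lower, a call lost under a median scaling (log2 -0.68 and -0.75), all called in both backgrounds. PGAM2, a phosphoglycerate mutase, was the only 1 of 20 glycolysis genes that was shared and lower (log2 -3.63 and -0.92). Of 17 interferon-stimulated genes 3 were shared and lower and none higher. In WT-v 8 were called lower, against 12.3% of all genes, and in DoxR-v 2 were, against 13.9% of all genes. Whether these counts differ between the backgrounds was not tested. None of 20 histone genes, 20 genes of the unfolded protein and amino acid response or 4 metallothionein genes was shared by limma, and at an unadjusted p below 0.05 the average gave 2, 6 and 1 of them higher and 1, 5 and 1 lower.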
